A study of Mus musculus with 24 samples.

Results

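Chemokines and the interleukin-1 receptor antagonist were examined in the skeletal muscle and heart of mice that lack dystrophin, the protein that links the muscle fibre's cytoskeleton to its membrane and whose loss causes Duchenne muscular dystrophy. The genes were Ccl2, Ccl5, Ccl6, Ccl7, Ccl8, Ccl9, Cxcl12, Cxcl14, Cxcl16 and Il1rn. A probe set of the array counted when the platform annotation gave it a single gene symbol and that symbol was one of these 10. The rule found 18 probe sets for the 10 genes, out of 45037 probe sets and 18193 genes in all.

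The study hybridised 24 Affymetrix arrays, which gave 1 gastrocnemius (a calf muscle) and 1 heart array from each of 12 male mice aged 2 months, with 3 mice in each of 4 genotypes. Cmah KO mdx mice lack both dystrophin and functional Cmah, the enzyme that makes the sialic acid Neu5Gc, which humans also lack. The other dystrophin-deficient group was mdx, which carries functional Cmah, and both groups bear the strain label C57BL6/10J. Cmah KO and wild type (WT) mice have dystrophin and bear the label C57BL/6J. Dystrophin loss and strain therefore cannot be told apart in any comparison of dystrophin loss below. The labels do not give breeding or litters, and p-values measure the spread between these 12 animals. Both losses are in every cell of the animal and not in muscle alone.

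Chemokines are small secreted proteins that attract leukocytes through receptors on the cell surface, and they fall into families named CC, CXC, CX3C and XC after the spacing of their first cysteines. In dystrophic muscle, fibres break down and regenerate repeatedly, and monocytes that carry the receptor Ccr2 enter the tissue and become macrophages. Il1rn encodes a secreted protein that occupies the interleukin-1 receptor without activating it, so it limits the action of interleukin-1. Mdx mice have an early and strong phase of this damage in limb muscle, whereas their heart is affected later in life.

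Dmd read 8.18 ± 0.56 log2 intensity in Cmah KO mdx gastrocnemius and 8.37 ± 0.28 in mdx, against 10.15 ± 0.14 in Cmah KO and 10.16 ± 0.10 in WT (SD, n = 3). In heart it read 8.52 ± 0.33 in Cmah KO mdx and 8.86 ± 0.37 in mdx, against 9.25 ± 1.10 in Cmah KO and 9.96 ± 0.10 in WT, and its pooled change of −0.92 ± 0.37 (SE) did not pass there (adjusted p = 0.999 in limma). The brightest Cmah probe set did not separate the genotypes. It lay between 5.73 and 8.11 in the 6 gastrocnemius arrays of Cmah-deficient mice and between 6.24 and 7.89 in the 6 others, and its place relative to the deletion is not given in the sources used here, so it checks nothing. The summed intensity of 10 skeletal fibre markers was 91438 to 116282 across the gastrocnemius arrays, and 10 cardiac markers summed to 46311 to 90755 across the heart arrays. The heart arrays of Cmah KO replicate 3 and Cmah KO mdx replicate 2 stood apart. Their 3' minus 5' difference of the Gapdh control probe sets, a sign of RNA or amplification quality, was 4.29 and 4.43 on the log2 scale, against 0.44 to 1.60 in the other 10 heart arrays and 0.36 to 1.02 in gastrocnemius.

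Of the 10 genes, 7 lie on chromosome 11, 6 of them in a pair of CC chemokine clusters there, and Cxcl12, Cxcl14 and Il1rn lie on chromosomes 6, 13 and 2. Ccl2, Ccl7 and Ccl8 belong to the first cluster, where Ccl11 and Ccl12 lie between Ccl7 and Ccl8. Ccl5, Ccl9 and Ccl6 follow each other in the second cluster, 26 protein-coding genes away from Ccl8 in the RefSeq table of the GRCm38.p6 assembly. RefSeq promoter entries, which run from 250 bases before to 50 bases after a start, matched 6 of the genes, namely Ccl6, Ccl8, Ccl9, Cxcl12, Cxcl14 and, with 3 starts, Il1rn. The entries of Ccl8 and Il1rn are printed because these 2 genes rose past the threshold in dystrophin-deficient gastrocnemius, and that of Ccl9 because its levels followed Il1rn most closely across the arrays. All are GRCm38.p6, 5′ to 3′ on the gene's own strand, and capitals mark matches to the TATA box (TATAAA), the AP-1 site (TGANTCA) and the NF-κB consensus, searched on both strands. Ccl8 is at chr11:82114935-82115234 on the plus strand, and Ccl9 at chr11:83578587-83578886 on the minus strand. The upstream Il1rn start is at chr2:24336610-24336909 and a downstream one at chr2:24345121-24345420, both on the plus strand.
Ccl8: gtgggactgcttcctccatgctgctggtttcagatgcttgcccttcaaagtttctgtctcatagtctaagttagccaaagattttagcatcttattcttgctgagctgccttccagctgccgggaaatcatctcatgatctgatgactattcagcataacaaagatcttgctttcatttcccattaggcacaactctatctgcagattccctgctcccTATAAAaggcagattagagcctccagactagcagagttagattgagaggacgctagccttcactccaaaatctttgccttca
Ccl9: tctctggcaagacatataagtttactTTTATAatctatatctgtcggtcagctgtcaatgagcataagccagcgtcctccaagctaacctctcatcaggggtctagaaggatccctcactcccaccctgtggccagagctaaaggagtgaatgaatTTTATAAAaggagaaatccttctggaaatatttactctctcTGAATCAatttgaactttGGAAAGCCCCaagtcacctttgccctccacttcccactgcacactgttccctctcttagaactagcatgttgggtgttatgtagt
Il1rn, upstream start: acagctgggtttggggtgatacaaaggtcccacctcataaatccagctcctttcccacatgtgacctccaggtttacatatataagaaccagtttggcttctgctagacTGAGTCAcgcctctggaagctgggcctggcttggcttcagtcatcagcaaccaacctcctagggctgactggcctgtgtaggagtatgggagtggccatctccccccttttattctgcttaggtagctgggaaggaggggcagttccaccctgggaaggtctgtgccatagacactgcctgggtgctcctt
Il1rn, downstream start: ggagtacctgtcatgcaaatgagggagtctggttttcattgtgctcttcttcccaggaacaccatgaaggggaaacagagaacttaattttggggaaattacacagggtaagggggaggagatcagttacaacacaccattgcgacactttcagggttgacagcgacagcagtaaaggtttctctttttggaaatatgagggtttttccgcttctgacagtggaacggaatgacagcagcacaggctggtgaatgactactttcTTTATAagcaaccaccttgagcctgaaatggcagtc
The Ccl8 window held 1 TATA box, at −32 to −27 relative to the start. The Ccl9 window held 3 TATA matches, of which 2 overlap each other on opposite strands, and also 1 AP-1 site and 1 NF-κB match on the opposite strand. The upstream Il1rn window held 1 AP-1 site, and the downstream window a TATA match on the opposite strand, 14 to 19 bases past the start. Among all 32851 RefSeq promoter windows of this length, 13.6% held the TATA box, 7.81% the AP-1 site and 4.51% the NF-κB consensus. These letters describe the windows and show no binding.

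Loss of dystrophin in gastrocnemius went with higher Ccl8 and Il1rn, which were the 2 of the 10 genes past the threshold when all 6 dystrophin-deficient arrays were set against the 6 others. All 10 estimates were positive, with a median log2 change of 1.16, against a median of 0.02 over the 13209 genes tested, of which 52.0% had a positive estimate. Across all 29518 tested probe sets 0.857% passed (limma, Benjamini-Hochberg adjusted p below 0.05, either direction), and all 10 genes were tested at the brightest probe set, which is the one read below unless another is named. Before adjustment 7 of the 10 were higher at p below 0.05, against 6.82% of the tested probe sets. The 10 genes were chosen with earlier results of these data known. Their excess over all genes, here and in the comparisons below, is therefore descriptive and no independent support. The level of Ccl8, and of Il1rn, in each deficient array lay above every other array, whereas 1.2% of tested probe sets separated the groups upwards in this way. For Il1rn 5 of the 6 dystrophin-positive arrays lay under the 40th percentile of gastrocnemius values. It entered the test through the deficient arrays, so its separation and call weigh less than those of Ccl8. The Il1rn call was kept in 6 of 12 fits that left out 1 array, and the Ccl8 call in all 12.

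Macrophage markers shared the positive direction of the 10 pooled estimates in gastrocnemius. All 13 tested markers of 14 had positive estimates in dystrophin-deficient gastrocnemius, with a median log2 change of 1.58, and 2 passed, Lgals3 by 3.07 ± 0.36 and Fcgr1, an antibody receptor, by 2.73 ± 0.56 (SE, adjusted p = 0.00474 and 0.0471 in limma). None of the 14 lay below the 40th percentile on every array of a tissue. Their summed intensity was 17279 to 35792 in Cmah KO mdx and 19222 to 27534 in mdx, against 7821 to 10380 in Cmah KO and 8069 to 16321 in WT, so the deficient arrays lay above all others. In heart the sum was 10390 to 12912 in Cmah KO mdx and 11078 to 13750 in mdx, against 5180 to 11572 in Cmah KO and 10908 to 17764 in WT. Within the dystrophic arrays the sum was lowest in Cmah KO mdx replicate 1 and highest in Cmah KO mdx replicate 2. More cells of a type and more RNA per cell cannot be told apart in these bulk samples, and the part of the macrophage markers in the chemokine changes was not tested.

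Ccl8, a monocyte chemoattractant that in mouse acts through Ccr8, read 10.35, 11.04 and 11.00 log2 intensity in the Cmah KO mdx arrays and 10.49, 10.80 and 10.58 in the mdx arrays. It read 8.99, 8.67 and 8.84 in Cmah KO and 10.16, 9.30 and 9.42 in WT. Every dystrophin-deficient array was thus above the highest WT array, by little in the lowest case, and the Cmah KO arrays were the lowest of all. The pooled rise was 1.48 ± 0.22 on the log2 scale (SE, 6 against 6 arrays, 2.79-fold, adjusted p = 0.0106 in limma). The call held without any single array in turn, with adjusted p between 0.00822 and 0.0436.

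Il1rn read 5.04, 8.10 and 7.38 in the Cmah KO mdx arrays and 6.41, 7.82 and 6.43 in the mdx arrays, on the log2 intensity scale. It read 4.08, 3.79 and 4.16 in Cmah KO and 3.99, 3.72 and 4.69 in WT. All but 1 of the 6 dystrophin-positive arrays lay under 4.66, the level below which a gastrocnemius value counted as dim (the 40th percentile), whereas all deficient arrays lay over it. Il1rn thus entered the test through the deficient arrays, and its fitted change is against levels that these arrays may not resolve, so no fold is given. The pooled rise was 2.79 ± 0.47 on the log2 scale (SE, adjusted p = 0.0224 in limma). The adjusted p ran between 0.0560 and 0.0737 when any one of WT replicate 2, Cmah KO replicates 2 and 3, mdx replicate 2 or Cmah KO mdx replicates 2 and 3 was left out, and between 0.00181 and 0.0484 without any one of the other 6 arrays.

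A second Il1rn probe set, 1425663_at, was too dim to be tested but separated the groups in the same way. It read 4.04, 6.43 and 4.61 in Cmah KO mdx and 4.44, 5.41 and 4.06 in mdx, against 2.25 to 2.78 over the 6 Cmah KO and WT arrays. The third, 1423017_a_at, was also too dim, at 2.99 to 5.03 in the 6 deficient arrays and 2.91 to 3.94 in the 6 others, which overlap.

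Ccl2 and Ccl7, the monocyte chemoattractants that act through Ccr2, were uneven among the dystrophic animals. Ccl2 read 5.52, 9.35 and 8.82 log2 intensity in Cmah KO mdx and 5.49, 8.52 and 8.58 in mdx, against 4.13, 5.31 and 6.81 in Cmah KO and 6.39, 5.75 and 5.78 in WT. Ccl7 read 4.18, 8.28 and 8.20 in Cmah KO mdx and 5.58, 7.51 and 8.17 in mdx, against 4.02, 3.71 and 5.79 in Cmah KO and 5.24, 4.06 and 2.37 in WT. In each dystrophic genotype replicate 1 stayed within the range of the dystrophin-positive arrays for both genes, while the other 4 arrays lay above all of them.

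The Gapdh 3' minus 5' difference of these arrays was 0.97 in Cmah KO mdx replicate 1 and 0.76 in mdx replicate 1, against 0.37 to 0.71 in the other 4 dystrophic arrays. Among the dystrophin-positive arrays it was highest at 1.02 in Cmah KO replicate 1, where Ccl2 was lowest, at 4.13, and Ccl7 read 4.02. It was next at 0.82 in WT replicate 3, where Ccl7 was lowest, at 2.37, and Ccl2 read 5.78. The part of the Gapdh difference in these levels was not tested. The pooled changes were 2.02 ± 0.75 for Ccl2 and 2.79 ± 0.79 for Ccl7 on the log2 scale (SE, 6 against 6 arrays), with adjusted p of 0.335 and 0.164 in limma. For Ccl7 4 of the 6 dystrophin-positive arrays and 1 of the 6 deficient arrays lay under the dim level of 4.66. The size of its change may therefore not be resolved. With the Gapdh difference as a covariate the adjusted p was 0.0448 for Ccl2 and 0.0169 for Ccl7, and without Cmah KO mdx replicate 1 it was 0.0275 for Ccl7.

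Ccl6 and Ccl9, CC chemokines of rodents that act through Ccr1, and Ccl5, which attracts T cells and monocytes, make up the rest of the CC group. Ccl9 lay between 10.93 and 11.65 log2 intensity in the 6 dystrophin-deficient arrays (median 11.52), against 10.27 to 11.00 in the others (median 10.45), a change of 0.79 ± 0.22 on the log2 scale (SE, adjusted p = 0.164 in limma). One WT array, replicate 3, reached above the lowest deficient arrays. The second Ccl9 probe set, 1448898_at, had a pooled log2 change of 1.27 ± 0.62 with overlapping groups.

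Ccl6 lay between 10.01 and 11.81 log2 intensity in the deficient arrays, against 9.74 to 10.98 in the others, and its change of 0.81 ± 0.33 did not pass (SE, adjusted p = 0.419 in limma). At its other probe set, 1420249_s_at, every deficient array (10.08 to 11.02) lay above every other array (9.15 to 9.96), and the log2 change was 0.87 ± 0.22 (adjusted p = 0.118).

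Ccl5 had 1 array that decided its estimate. It read 6.56, 6.68 and 6.85 log2 intensity in Cmah KO mdx and 7.02, 6.79 and 5.75 in mdx, against 5.45, 4.56 and 6.44 in Cmah KO and 9.18, 4.29 and 4.67 in WT. WT replicate 1, at 9.18, exceeded every other gastrocnemius array. The pooled log2 change was 0.84 ± 0.72 (SE, adjusted p = 0.849 in limma) and 1.62 without that array (adjusted p = 0.0605). The same array had summed intensities of 3187 for 10 T and NK cell markers, 3341 for 5 B cell markers and 4468 for 8 neutrophil markers, against at most 798, 776 and 2277 in the other 11 arrays. The part of these markers in the Ccl5 value was not tested.

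**Figure D1:**
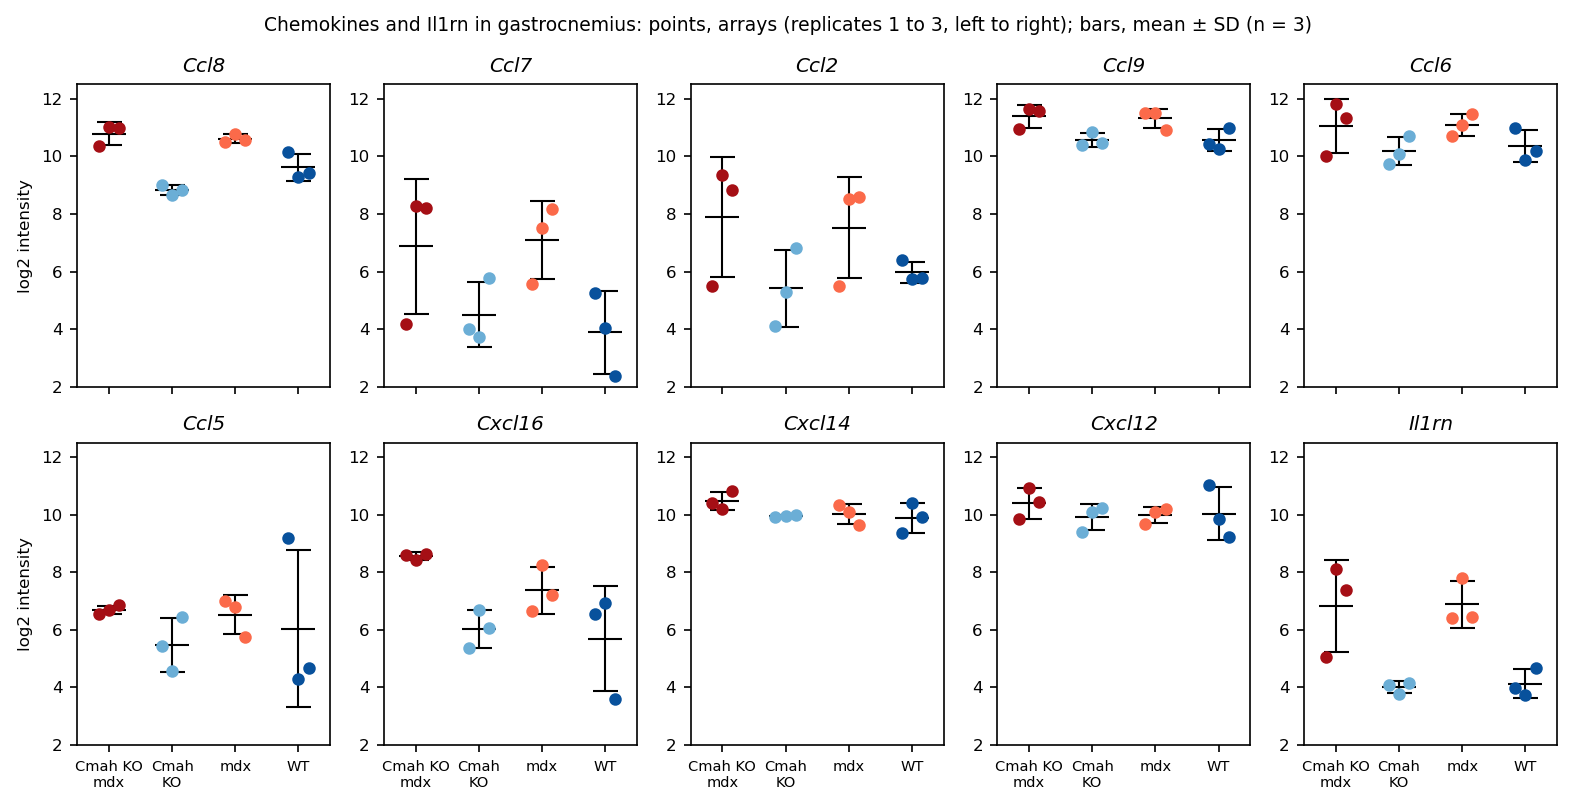
Log2 intensity of the 10 genes at their brightest probe sets in gastrocnemius, by genotype. Points are arrays in order of replicate number, and black bars are mean ± SD of 3 arrays. Ccl8 and Il1rn separate both mdx groups, whose lowest arrays read 10.35 and 5.04, from every Cmah KO and WT array, and Ccl5 has a single WT array at 9.18. Most Il1rn values of the Cmah KO and WT arrays lie under the dim level of 4.66.

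The CXC chemokines divided. Cxcl16 is made as a membrane-bound protein that binds oxidised lipoprotein and, once shed, attracts lymphocytes through Cxcr6. It read 8.62, 8.41 and 8.65 log2 intensity in Cmah KO mdx and 6.66, 8.26 and 7.22 in mdx, against 5.37, 6.70 and 6.05 in Cmah KO and 6.55, 6.94 and 3.59 in WT. The Cmah KO mdx arrays were the 3 highest, whereas one mdx array lay within the dystrophin-positive range. The pooled log2 change was 2.10 ± 0.53 (SE, adjusted p = 0.107 in limma), and at the second probe set, 1418718_at, it was 1.44 ± 0.59. Of the 6 dystrophin-positive arrays 1, the WT array at 3.59, lay under the dim level of gastrocnemius at the brightest probe set. The size of the change may therefore not be resolved, and no fold is given. Over 12 fits that each left out 1 array, the pooled log2 change at that probe set ran between 1.58 and 2.41.

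Cxcl12 retains stem cells and leukocytes through Cxcr4, and Cxcl14 is made constitutively in many tissues. Neither passed for dystrophin loss. Cxcl12 lay between 9.69 and 10.91 log2 intensity in the deficient arrays and between 9.24 and 11.04 in the others, with a change of 0.22 ± 0.32 (SE, 95% interval −0.48 to 0.92). Its second probe set, 1417574_at, had a log2 change of −0.34 ± 0.25, so the direction differs between probe sets. Cxcl14 lay between 9.65 and 10.82 in the deficient arrays and between 9.37 and 10.40 in the others, with a log2 change of 0.32 ± 0.22 (95% interval −0.17 to 0.81), and its second probe set, 1418457_at, gave 0.91 ± 0.29. None of these 4 changes passed.

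The 2 comparisons that make up the pooled contrast gave fewer calls. For mdx against WT no gene of the 10 passed (limma, adjusted p below 0.05) and 0.0169% of the tested probe sets did, while 5 of the 10 were higher at an unadjusted p below 0.05, against 2.38%. The log2 changes had a median of 0.87, against 0.02 over all genes tested, and 9 of 10 were positive. Ccl7, Ccl8 and Il1rn separated the 3 mdx arrays from the 3 WT arrays upwards, against 3.54% of probe sets. Their log2 changes were 3.20 ± 1.12, 1.00 ± 0.31 and 2.76 ± 0.67 (SE), with adjusted p of 0.877 for Ccl8 and 0.465 for Il1rn. Most WT values of Ccl7 and Il1rn lay under the dim level.

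For Cmah KO mdx against Cmah KO, Ccl8 was the only one of the 10 that rose past the threshold, by 1.96 ± 0.31 on the log2 scale (SE, 3.89-fold, adjusted p = 0.0388 in limma), with 0.112% of tested probe sets past it. All 10 log2 changes were positive with a median of 1.59, against 0.02 over all genes tested, and 5 of 10 were higher at an unadjusted p below 0.05, against 5.36%. Ccl5, Ccl8, Ccl9, Cxcl14, Cxcl16 and Il1rn separated the groups upwards, against 7.27%. Il1rn had a log2 change of 2.83 ± 0.67 (adjusted p = 0.161) and Cxcl16 one of 2.52 ± 0.74 (adjusted p = 0.281). The Ccl8 call was lost, with adjusted p between 0.0527 and 0.263, without any one of WT replicate 2, mdx replicates 1 and 2, Cmah KO mdx replicates 2 and 3 or any Cmah KO array, and it was kept without any one of the other 4.

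In heart no gene of the 10 passed in any comparison of dystrophin loss, in limma at adjusted p below 0.05, and nor did Dmd itself. None of the 29421 tested probe sets (0%) passed for Cmah KO mdx against Cmah KO, mdx against WT or all deficient against all positive hearts. At an unadjusted p below 0.05, 0 of the 10 genes differed for Cmah KO mdx against Cmah KO, 1 for mdx against WT and 1 in the pooled comparison, against 1.93%, 0.35% and 0.836% of probe sets. The gene was Il1rn both times, and it was lower, not higher. The 10 pooled estimates had a median log2 change of 0.04 and 6 were positive, against a median of 0.18 over all genes tested.

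Il1rn read 3.86, 3.38 and 3.71 log2 intensity in Cmah KO mdx hearts and 3.45, 3.99 and 3.94 in mdx hearts, against 3.46, 3.85 and 4.99 in Cmah KO hearts and 4.44, 4.91 and 5.82 in WT hearts. Every mdx heart lay below every WT heart at this probe set, but not at 1425663_at or 1423017_a_at. Most of the values above are below 4.78, the 40th percentile of heart. The log2 change was −1.26 ± 0.50 for mdx against WT (SE) and −0.86 ± 0.36 in the pooled comparison, which was −0.57 without the 2 heart arrays that stood apart, an alternative chosen after the data were seen.

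The other 9 genes had pooled heart changes between −0.35 ± 0.50 for Ccl8 and 0.51 ± 0.41 for Cxcl14, all with intervals that include 0. Ccl8 read 7.97, 6.08 and 6.95 in Cmah KO mdx hearts and 6.77, 7.88 and 7.13 in mdx hearts, against 8.19, 7.10 and 5.66 in Cmah KO and 7.65, 8.93 and 7.37 in WT hearts, on the log2 intensity scale. The lowest value in each Cmah-deficient group, 6.08 and 5.66, came from the 2 arrays that stood apart. Ccl2 lay between 5.66 and 7.19 in the 6 deficient hearts and between 4.22 and 7.30 in the 6 others. It was higher in every Cmah KO mdx heart (6.22 to 6.92) than in every Cmah KO heart (4.22 to 6.21), by a narrow gap. Ccl2 was the only gene of the 10 to separate these groups upwards, and the share over all probe sets is not given here. Ccl7 lay between 3.82 and 6.58 in the deficient hearts and between 3.86 and 6.02 in the others. Neither gene had the high arrays seen in dystrophic gastrocnemius.

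Cxcl16 lay between 6.14 and 7.19 log2 intensity in the deficient hearts and between 6.26 and 7.48 in the others. Like Il1rn, it was lower in every mdx heart (6.14 to 7.00) than in every WT heart (7.22 to 7.48), and 3.81% of probe sets separated these groups downwards. At the second Cxcl16 probe set, 1418718_at, these groups overlapped (5.39 to 6.91 against 6.69 to 7.46). Ccl6 and Ccl9 had medians of 10.13 and 10.20 in the deficient hearts and 10.08 and 10.29 in the others. Ccl5, Cxcl12 and Cxcl14 had medians of 5.34, 8.99 and 7.18 in the deficient hearts and of 5.58, 8.69 and 6.65 in the others. All 6 of these genes overlapped between the 6 deficient and the 6 other hearts. The lowest Ccl9 heart value, 6.74, came from Cmah KO replicate 3, which is one of the arrays that stood apart.

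**Figure D2:**
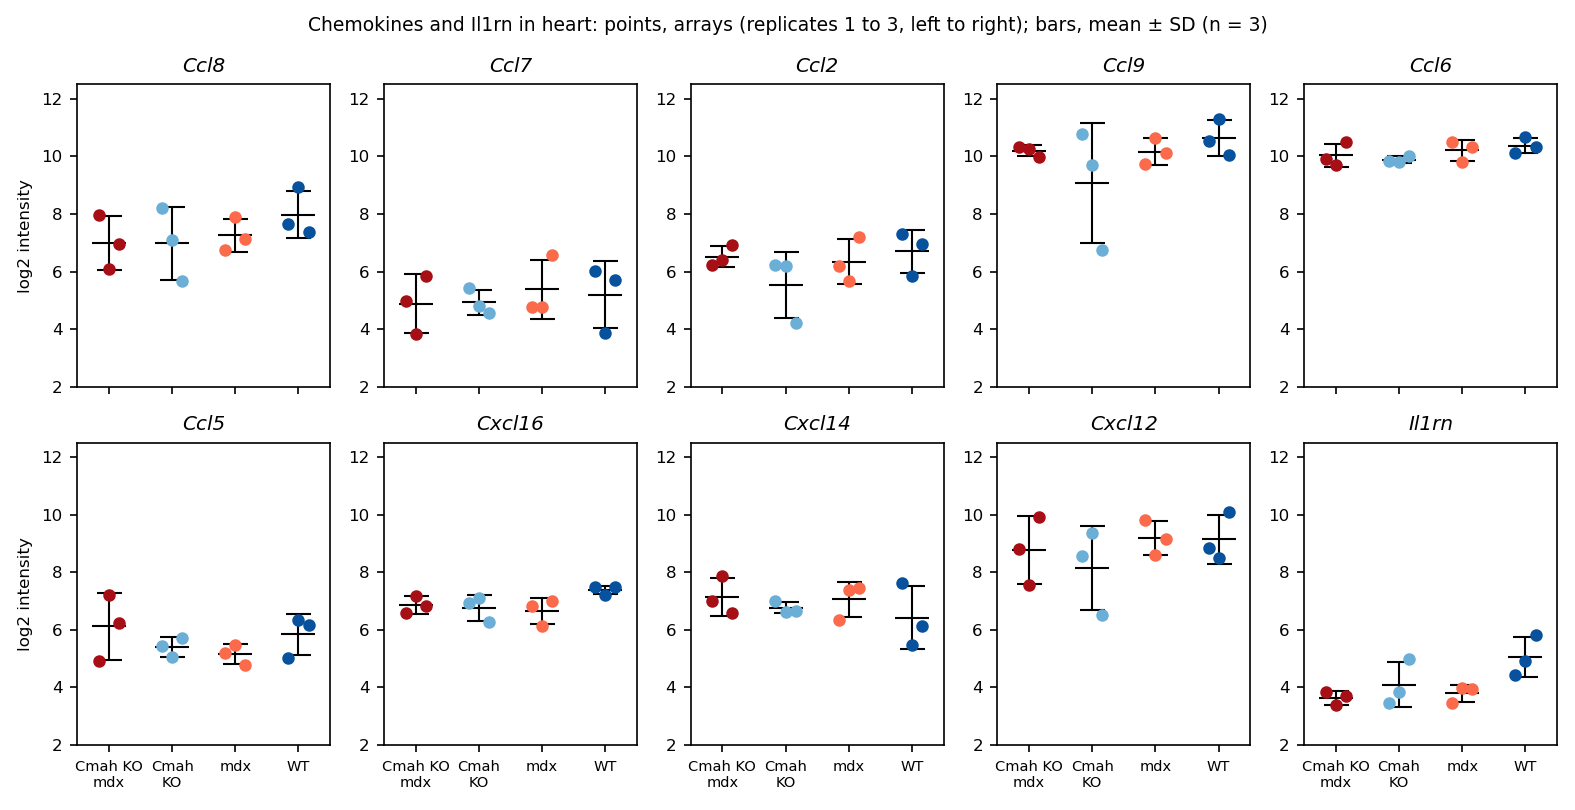
Log2 intensity of the 10 genes in heart, drawn as for gastrocnemius and on the same axis range. The groups overlap for most genes. Il1rn in WT hearts, at 4.44 to 5.82, lies above the mdx hearts at 3.45 to 3.99.

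The effect of dystrophin loss was more positive in gastrocnemius than in heart for Il1rn and Cxcl16. This was tested as the difference of both pooled changes over all 24 arrays, with the animal as a random block. For Il1rn 9 of the 12 hearts and 5 of the 6 dystrophin-positive gastrocnemius arrays lay under the dim level of their tissue, so the size of its difference rests on values that may not be resolved. The log2 difference was 3.65 ± 0.55 for Il1rn (SE, 95% interval 2.51 to 4.78, adjusted p = 0.00238 in limma) and 2.42 ± 0.54 for Cxcl16 (interval 1.29 to 3.55, adjusted p = 0.0454), while 0.48% of the 31070 probe sets tested in either tissue passed. Cxcl16 at its second probe set gave 2.14 ± 0.61 (adjusted p = 0.160).

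Among the others the difference was 1.83 ± 0.52 for Ccl8 (SE, adjusted p = 0.151) and 2.72 ± 0.87 for Ccl7 (adjusted p = 0.259), and neither passed. For Ccl7 4 of the 12 hearts and 4 of the 6 dystrophin-positive gastrocnemius arrays lay under the dim level of their tissue. For Cxcl14 and Cxcl12 the difference was −0.19 ± 0.41 and −0.12 ± 0.58, with intervals from −1.04 to 0.65 and from −1.33 to 1.10. The Cxcl16 call was lost, with adjusted p between 0.0655 and 0.184, when any one of the 6 dystrophin-deficient animals or either of 2 Cmah KO animals was left out, and it was kept without any one of the other 4. Without the 2 heart arrays that stood apart Ccl8 passed as well (adjusted p = 0.0325), beside Il1rn at 0.00595 and Cxcl16 at 0.0358. The Il1rn call held without any single animal in turn, with adjusted p up to 0.0175.

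**Figure D3:**
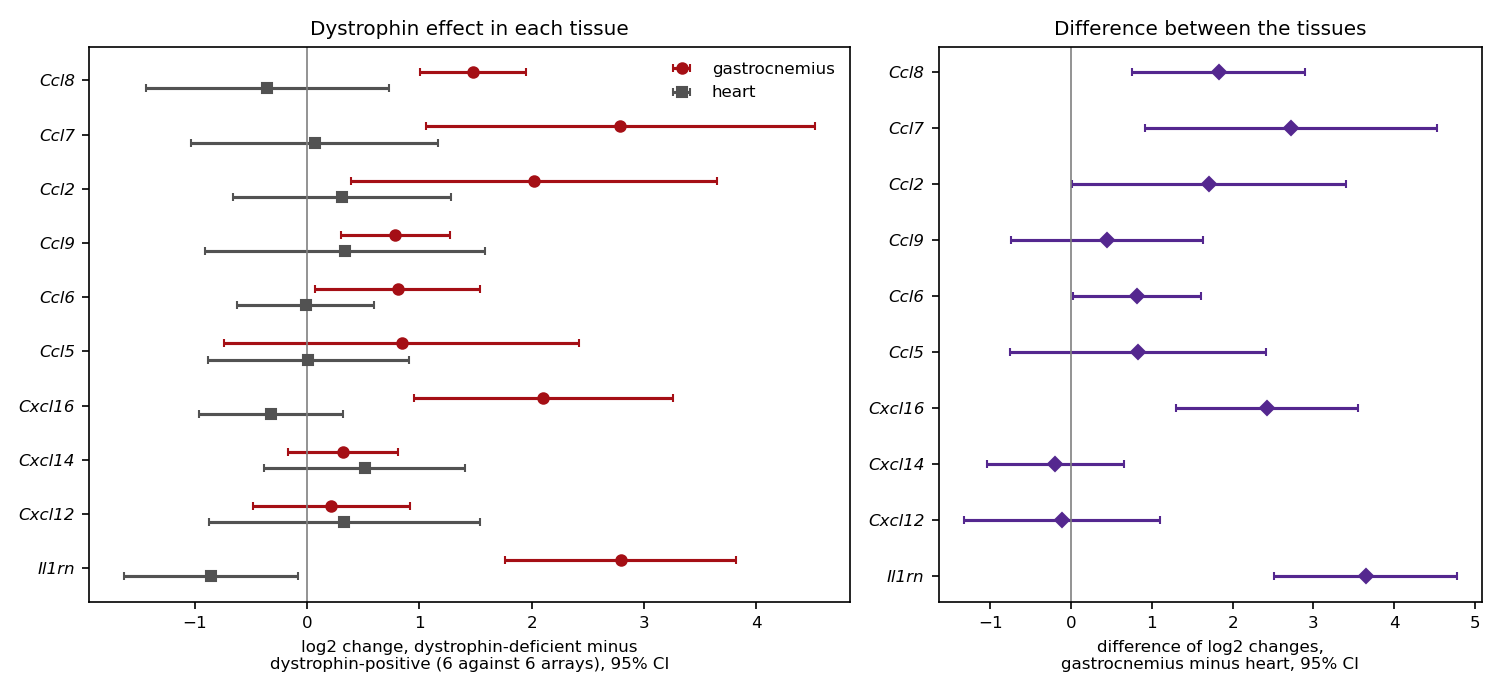
Left, log2 change of each gene in dystrophin-deficient against dystrophin-positive arrays (6 against 6) in gastrocnemius and in heart, with 95% confidence intervals. Right, the difference of the 2 changes. The gastrocnemius changes are all above 0, whereas the heart changes lie between −0.86 and 0.51, and the difference is largest for Il1rn at 3.65.

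Gastrocnemius and heart also differed in the level of 6 of the 10 genes, all lower in heart at their brightest probe sets when averaged over the genotypes. Over all tested probe sets 28.1% passed in either direction and 15.7% were lower in heart, so calls are frequent here (limma, animal as a random block, adjusted p below 0.05). Cxcl14 lay between 5.49 and 7.88 log2 intensity in the 12 hearts and between 9.37 and 10.82 in the 12 gastrocnemius arrays, a difference of −3.24 ± 0.20 (SE, adjusted p = 4.38e-11). It was the only one of the 10 whose tissues did not overlap, against 2.53% of probe sets, and its second probe set gave −2.77 ± 0.22.

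The log2 difference, heart minus gastrocnemius, was −2.66 ± 0.26 for Ccl8 (SE, adjusted p = 4.8e-08 in limma), −1.32 ± 0.27 for Il1rn (adjusted p = 0.000837), −0.95 ± 0.29 for Ccl9 (adjusted p = 0.0159) and −0.54 ± 0.19 for Ccl6 (adjusted p = 0.037). These differences average the 4 genotypes. In WT alone Il1rn averaged 5.05 in heart and 4.13 in gastrocnemius, Ccl9 10.63 and 10.57, and Ccl6 10.38 and 10.36, so the means of these 3 genes were not lower in WT heart. The test within single genotypes was not run. Both probe sets of Ccl6 passed in this direction, and the other 4 genes, Ccl2, Ccl5, Ccl7 and Cxcl16, did not pass. The Ccl6 call was lost without any one of 8 of the 12 animals, with adjusted p up to 0.109, and with the Gapdh covariate both the Ccl6 and the Ccl9 call were lost (adjusted p = 0.0718 and 0.0645). Cxcl12 differed by −1.27 ± 0.29 at its brightest probe set (adjusted p = 0.0021), but was higher in heart by 0.74 ± 0.19 at 1417574_at (adjusted p = 0.00551), so no direction holds for the gene. Macrophage markers, 14 genes, summed to 5180 to 17764 in heart and to 7821 to 35792 in gastrocnemius, and skeletal fibre markers varied between 634 and 24301 among hearts. Their part in these differences was not tested.

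Across the 8 groups of tissue and genotype, described here with no test, Ccl8 was ordered by tissue first. Its mean log2 intensity was 10.79 ± 0.39 in Cmah KO mdx gastrocnemius, 10.62 ± 0.16 in mdx, 8.83 ± 0.16 in Cmah KO and 9.63 ± 0.47 in WT, and between 6.98 ± 1.27 and 7.98 ± 0.83 in the 4 heart groups (SD, n = 3). Both mdx groups overlapped each other, WT lay below them and above Cmah KO without overlap on either side, and from Cmah KO down each group overlapped the next. Il1rn was ordered otherwise, with mdx and Cmah KO mdx gastrocnemius at 6.89 ± 0.81 and 6.84 ± 1.60, WT heart next at 5.05 ± 0.70, and the other 5 groups between 3.65 ± 0.24 and 4.13 ± 0.50. In that order each group overlapped the next.

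Cmah loss left the 10 genes without a call in either tissue (limma, adjusted p below 0.05). In gastrocnemius 0.00339% of probe sets passed for Cmah KO mdx against mdx, 0% for Cmah KO against WT and 0% for the interaction of both losses. In heart 0% passed in each of these 3 comparisons. At an unadjusted p below 0.05 the gastrocnemius comparisons found 0 of the 10 genes for Cmah KO mdx against mdx, 1 for Cmah KO against WT and 1 for the interaction, against 0.928%, 1.12% and 1.05% of probe sets. The heart comparisons found 0 of 10 each, against 1.58%, 0.85% and 0.486%. The 10 log2 changes in gastrocnemius had a median of 0.18 for Cmah KO mdx against mdx and of −0.12 for Cmah KO against WT, with medians of 0.05 and 0.04 over all genes tested. In heart they had medians of −0.05 and −0.79, with −0.10 and −0.44 over all genes tested.

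The gene with an unadjusted p below 0.05 was Ccl8 both times. Its log2 change for Cmah KO against WT was −0.79 ± 0.31 (SE, 3 against 3 arrays), without overlap between the groups (as for 1.45% of probe sets downwards), and −0.53 without WT replicate 1. Its interaction was 0.96 ± 0.43, which is the change in Cmah KO mdx against Cmah KO minus that in mdx against WT. Cxcl16 separated Cmah KO mdx from mdx upwards in gastrocnemius, with a log2 change of 1.18 ± 0.74 that did not pass, while 2.28% of probe sets separated upwards there, and its second probe set overlapped. In heart Ccl6 and Cxcl16 were lower in every Cmah KO array than in every WT array, at 9.81 to 10.03 against 10.13 to 10.66 and at 6.26 to 7.12 against 7.22 to 7.48, and 3.62% of probe sets separated in this way. At their second probe sets, 1420249_s_at and 1418718_at, these groups overlapped. Cmah KO replicate 3 is also one of the heart arrays that stood apart.

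Other chemokine genes of the same clusters gave a mixed picture in dystrophin-deficient gastrocnemius. Ccl12, a monocyte chemoattractant between Ccl7 and Ccl8, had a pooled log2 change of 2.75 ± 1.06 (SE, adjusted p = 0.368 in limma), whereas Ccl11, an eosinophil chemoattractant beside it, had 0.04 ± 0.43 (95% interval −0.90 to 0.98). Ccl3, next to Ccl6, had 1.76 ± 0.50 (adjusted p = 0.165). Ccl1 and Ccl4 at the cluster ends were too dim to be tested.

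**Figure D4:**
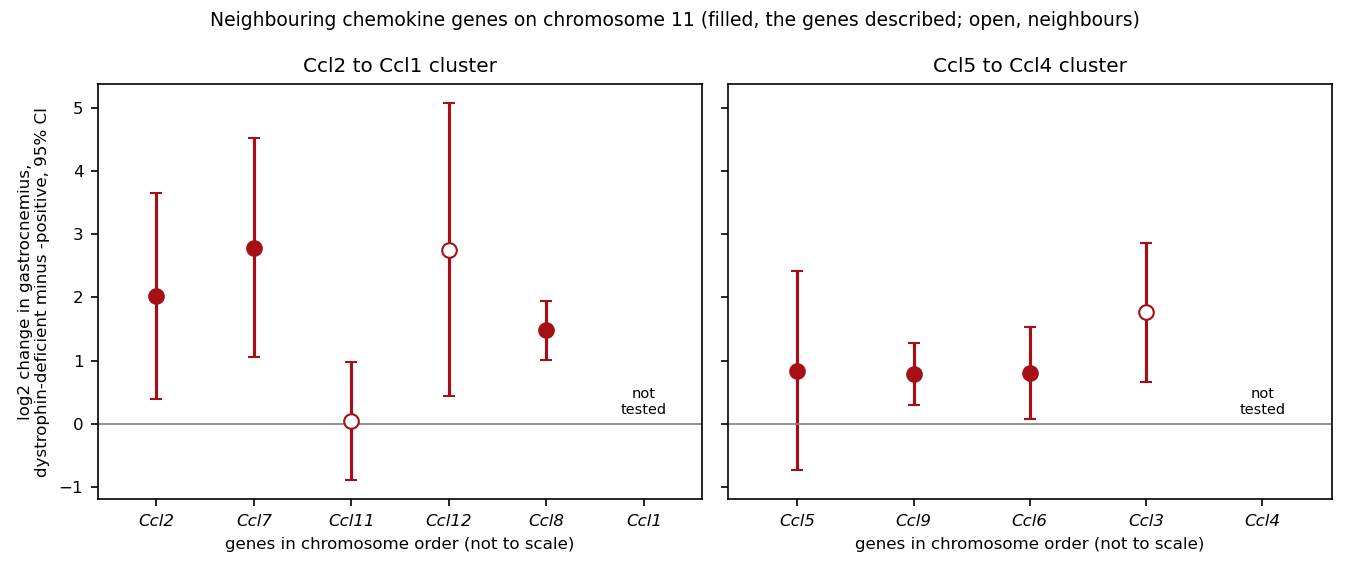
Log2 change in dystrophin-deficient against dystrophin-positive gastrocnemius (6 against 6 arrays, 95% confidence intervals) for the genes of both CC chemokine clusters on chromosome 11, in gene order and not to scale. Filled points are among the 10 genes and open points are their neighbours. Ccl11, at 0.04, lies between Ccl7 at 2.79 and Ccl12 at 2.75.

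Of the other CC chemokines on the array 8 of 12 could be tested and none passed in gastrocnemius, with 7 of 8 estimates positive and a median log2 change of 0.37. Ccl24 had 0.69 ± 0.27 and Ccl25 −0.69 ± 0.32 (SE). Among the other CXC, CX3C and XC chemokines 8 of 14 could be tested and none passed, with 7 positive and a median of 0.64. Cxcl10, which interferons induce, had 2.19 ± 0.57 (adjusted p = 0.123), Pf4, which platelets store, 1.16 ± 0.39, Cxcl9 0.61 ± 0.27 and Cx3cl1 0.57 ± 0.20. Ccl3 and Cxcl10 passed the test of the difference between the tissues, at 3.00 ± 0.63 (adjusted p = 0.0281 in limma) and 2.86 ± 0.58 (adjusted p = 0.0240), gastrocnemius minus heart. Mean Cxcl10 was under the dim level in Cmah KO and WT gastrocnemius, at 4.38 and 4.47. In Cmah KO mdx and mdx hearts it was 4.24 and 4.45, under the dim level of heart. Mean Ccl3 was likewise dim in Cmah KO gastrocnemius (3.62) and in these hearts (3.51 and 3.87). The pooled heart change of Ccl3 was −1.24 ± 0.48 (SE). The sizes of both differences may therefore not be resolved.

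Among the chemokine receptors 1 of 7 tested rose, with 0.857% of all tested probe sets past the threshold. Ccr2, the receptor for Ccl2, Ccl7 and Ccl12, averaged 9.30 ± 0.33 log2 intensity in Cmah KO mdx gastrocnemius and 9.08 ± 0.47 in mdx, against 6.80 ± 0.66 in Cmah KO and 7.30 ± 0.91 in WT (SD, n = 3). Its pooled rise was 2.14 ± 0.34 (SE, adjusted p = 0.0160 in limma), and 5 of the 7 estimates were positive with a median of 0.83. Cx3cr1, the receptor of Cx3cl1, had 1.49 ± 0.39 (adjusted p = 0.121), Cxcr4, the receptor of Cxcl12, 0.83 ± 0.29, and Ccrl2 −0.63 ± 0.21. The 4 atypical chemokine receptors Ackr1, Ackr2, Ackr3 and Ackr4 had changes between 0.04 ± 0.27 and 0.53 ± 0.36, and none passed.

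In the interleukin-1 system apart from Il1rn none of 14 tested genes passed in gastrocnemius, 13 estimates were positive, and the median log2 change was 0.58. Il1b, the cytokine that Il1rn opposes, had 1.09 ± 0.35 (SE, adjusted p = 0.235 in limma), the adaptor Myd88 1.30 ± 0.34 (adjusted p = 0.130), and the inflammasome genes Pycard and Casp1 1.58 ± 0.52 and 1.04 ± 0.35.

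The genes whose gastrocnemius levels were most like the mean level of the 10 (each scaled to its own mean and SD over 12 arrays) were Tmem106a, Fcgr1, Slc11a1, Cd68, Plscr1, Fcgr3, Adgre1 and Cdk14, with Pearson's r between 0.968 and 0.977 among 13199 genes compared. Fcgr1, Cd68, Fcgr3 and Adgre1 are macrophage surface or lysosomal genes. These r values describe 12 arrays that share the genotype difference and the differences between animals. Among the 10 themselves Ccl2 and Ccl6 had r of 0.92, Ccl9 and Il1rn 0.90, Ccl7 and Ccl6 0.90 and Ccl8 and Il1rn 0.87. Cxcl14 was least like the rest, with its closest gene, Cxcl16, at r of 0.47, and the levels of Ccl5 and Cxcl14 had r of −0.20.

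**Figure D5:**
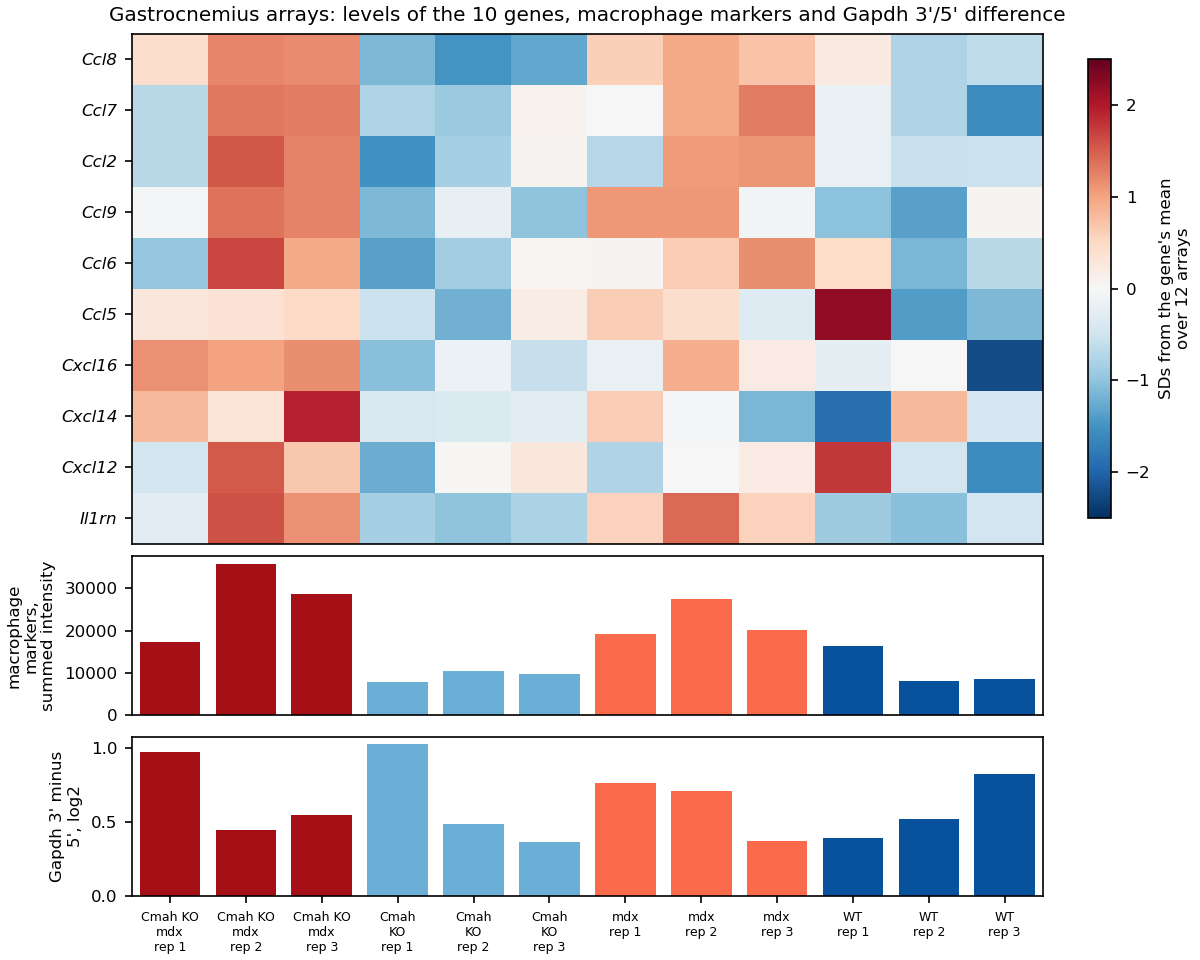
Top, levels of the 10 genes in each of 12 gastrocnemius arrays as SDs from the gene's mean. Middle, summed intensity of 14 macrophage markers. Bottom, Gapdh 3' minus 5' log2 difference. Cmah KO mdx replicates 2 and 3 have the highest marker sums, 35792 and 28600, and Cmah KO mdx replicate 1 has a Gapdh difference of 0.97.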

How the data were processed

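The deposited series table holds linear intensities for 45101 probe sets on 24 arrays, made by the authors with GCOS and RMA per the submitters' processing notes, with versions not given in the sources used here. RMA values have no detection calls, and 25 ng of RNA was amplified, so dim probe sets carry noise. Values were taken to log2 and fitted with limma 3.58.1 (R 4.3.3) for each tissue on its 4 genotypes, with Benjamini-Hochberg adjustment over all tested probe sets. A probe set was tested if at least 3 of 12 arrays lay above the 40th percentile of the tissue. Comparisons between tissues used 24 arrays with the animal as a random block (correlation 0.217). A gene was read at its probe set with the highest mean over the 24 arrays. It counted as tested only if that probe set passed the filter. Of 45037 probe sets, 34945 had 1 symbol, 932 several and 9160 none. No 2 arrays held identical values. The number of arrays limits the precision. The fit within a tissue was tested on simulated gastrocnemius data, for the pooled comparison of dystrophin loss. The fit over both tissues was not tested in this way. The genes and lists were chosen with earlier results of these data known. Named were all 10 genes, list genes with the lowest p-values and the 8 genes most alike. Alternatives varied the filter, scaling, variance model, array weights, Gapdh covariate, probe sets, blocks and arrays left out. Leaving out both heart arrays that stood apart was chosen after seeing the data.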

Additional observations from a re-analysis of the deposited data

Results flagged for a closer look

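The effect of dystrophin loss differed between the tissues for Il1rn, by 3.65 ± 0.55 on the log2 scale, gastrocnemius minus heart (SE, adjusted p = 0.00238 in limma, 24 arrays). All 6 dystrophin-deficient gastrocnemius arrays lay above all 6 others, whereas in heart the pooled change was −0.86 ± 0.36. Of the 12 hearts 9, and of the 6 dystrophin-positive gastrocnemius arrays 5, lay under the dim level of their tissue, which limits the size that can be read. Cxcl16 differed likewise by 2.42 ± 0.54 (adjusted p = 0.0454), with pooled changes of 2.10 ± 0.53 in gastrocnemius and −0.32 ± 0.29 in heart. The Cxcl16 call was lost without any one of 8 of the 12 animals and, with adjusted p between 0.0580 and 0.158, with no filter, the stricter filter, quantile normalization, no animal block and a fixed animal block.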

How the results depend on the processing

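Of 14 comparisons, 10 had no gene of the 10 past the threshold under any alternative run. For Cmah KO mdx against Cmah KO in gastrocnemius, where 1 gene passed, array weights gave 2, while fitting only the 2 groups gave 0 and so did the replicate block (Ccl8, adjusted p = 0.0856). Leaving out single arrays gave 0 to 2. Over all genotypes the replicate numbers did not pair the samples throughout, since 10 of 18 same-numbered pairs in gastrocnemius and 6 of 18 in heart had a correlation above 0.1, and arrays correlated best with their own number in 16 of 36 and 10 of 36 cases. In gastrocnemius all 3 pairs of Cmah KO and mdx were above 0.1. For Cmah KO mdx with Cmah KO, where the block removed the Ccl8 call, the pairs had 0.60, −0.14 and 0.18. All 3 gastrocnemius pairs of Cmah KO mdx and mdx were above 0.1, and no gene passed in that comparison with or without the block. For all deficient against all positive gastrocnemius arrays, where 2 genes passed, array weights and the Gapdh covariate each gave 5, the stricter filter, which does not test Il1rn, gave 1, and leaving out single arrays gave 1 to 3. For the difference between the tissues, where 2 passed, array weights gave 6, and 1 passed with no filter, with quantile normalization, with no animal block and with a fixed animal block, where the Cxcl16 call was lost. The stricter filter gave 0 there, and leaving out single animals gave 1 to 3. For heart against gastrocnemius, where 6 passed, single animals left out gave 5 to 6, the Gapdh covariate 4 (Ccl6 and Ccl9 lost), array weights 7 (Ccl5 gained), quantile normalization and no animal block 5 each (Ccl6 lost), the stricter filter 5 (Il1rn not tested) and the mean over probe sets 5 (Cxcl12 lost). Of 1148 single-gene alternatives, 1064 kept direction and side of the threshold, 41 lost the call, 18 gained one and 25 changed sign. Heart minus gastrocnemius changed to −0.14 for Cxcl16 with array weights, to 0.022 for Ccl2 with the Gapdh covariate and to 0.010 for Cxcl12 with the mean over probe sets, and single animals left out gave −0.24 to 0.15 for Cxcl16. The pooled gastrocnemius change of Cxcl12 was −0.063 with the mean over probe sets. For the difference between the tissues Cxcl14 had 0.42 with array weights, 0.10 with the mean over probe sets and −0.37 to 0.048 without single animals. There Ccl9 ran between −0.020 and 1.00 and Cxcl12 between −0.43 and 0.37 without single animals, and Cxcl12 had 0.0041 without both heart arrays that stood apart. For mdx against WT in gastrocnemius Cxcl12 had 0.017 with the Gapdh covariate, and without single arrays Cxcl12 ran between −0.45 and 0.45, Cxcl14 between −0.15 and 0.37 and Ccl5 between −0.41 and 2.04. The cause of these changes was not tested. Levels near the 40th percentile, such as Il1rn in heart, limit what can be read.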
